A study of Homo sapiens with 4 samples.

Results

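The metabolic nuclear receptors of the liver are described here in 4 RNA-seq libraries, 2 labelled wild-type HepG2 and 2 labelled HepG2 with TXNDC9 knocked out. They are 10 genes, NR1H4, NR0B2, NR1I2, NR1I3, NR5A2, PPARA, RXRA, NR1H2, NR1H3 and ESRRA, taken by symbol from the 57979 genes of the expression table, in which each of the 10 has its own line. They were listed by name as known regulators of liver metabolism, with earlier results of these data known, and no measured value enters the rule. HepG2 is an established line from a human liver tumor, and TXNDC9 encodes a thioredoxin domain protein. The knockout cells are described as made by lentiviral delivery of Cas9 and a guide RNA followed by sorting of infected cells. Which of the 2 guides a library carries and whether a clone was isolated are not given in the sources used here. A legend of the study describes sorted cells with vector alone as the control of a protein blot, without saying whether the wild-type libraries came from such cells. The comparison asks how the level of each receptor differed between cells without and with the TXNDC9 disruption.

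Nuclear receptors are transcription factors, most of which bind a small fat-soluble ligand and then exchange corepressor proteins for coactivators on DNA. The liver uses this group to sense what passes through it. FXR (NR1H4) binds bile acids and induces SHP (NR0B2), a receptor without a DNA-binding domain, which together with the liver receptor homologue NR5A2 governs the bile acid synthesis gene CYP7A1. PXR (NR1I2) and CAR (NR1I3) switch on drug-metabolizing enzymes, the LXRs (NR1H2 and NR1H3) bind oxysterols and direct cholesterol efflux and fatty acid synthesis, and PPARA binds fatty acids and directs their oxidation. RXRA is the shared partner with which FXR, PXR, CAR, the LXRs and PPARA bind DNA as heterodimers. ESRRA, an orphan receptor related to the estrogen receptors, acts with PGC-1 coactivators on mitochondrial genes.

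Levels are given as FPKM, a fragment count scaled to transcript length and to the size of the library. How library size was normalized is not given in the sources used here. A difference is the log2 fold change of knockout over wild-type computed on log2(FPKM + 0.1), which understates the change of low genes. The test was limma's moderated test over the 13246 genes that averaged above 1 FPKM, with Benjamini-Hochberg adjustment, and a gene was called when its adjusted p was under 0.01 and its change at least 2-fold. The number of reads behind each library is unknown, since the file holds no counts. With 2 libraries a group, an exact permutation test of a single gene cannot go below p = 0.333. Legends of the study describe RNA-seq values as coming from independent experiments, but of a number that differs from the 2 libraries a group here, and the labels do not say that these came from separate cultures. The p-values therefore measure only the spread between these libraries, which may be technical.

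Several features of the whole table bear on every value below. TXNDC9 itself measured 35.1 and 37.3 FPKM in the wild-type and 21.9 and 27.6 in the knockout libraries. The log2 fold change of -0.55 (SE 0.14, limma adjusted p = 0.0145) did not pass the call rule. It turned to 0.12 on TPM and was -0.51 after the correction for length and GC content given below. The study reports reduced TXNDC9 protein in knockout cells by western blot, which RNA levels do not measure. TXNDC9 overlaps EIF5B on the other strand. The libraries labelled HepG2 held little or no RNA of 9 hepatocyte and hepatoma markers, although SLCO1B3, a hepatocyte uptake transporter described below, was detected. All 9 of ALB, AFP, APOA1, APOB, TTR, SERPINA1, TF, FGB and GPC3, the defining secreted and surface products of hepatocytes and hepatoma cells, stayed below 0.5 FPKM in every library, and their sum was 0.383 and 0.733 FPKM in the wild-type and 0.0236 and 0.153 in the knockout libraries. The epithelial keratins KRT8 and KRT18, which the same marker list also held, were abundant in all 4. Of 11 markers of other cell types 5 stayed below 0.5 FPKM in every library. The 11 summed to 2353 and 4129 FPKM in the wild-type and 570.1 and 601 in the knockout libraries. Nearly all of it was the epithelial keratin KRT7, which was listed as a biliary marker. The part of other cell types in the results was not tested. The data therefore go against the label, and the cells are called here only by it. The 12 genes checked that every cell uses were all detected, the lowest at 7.86 FPKM. Across the tested genes 2021, or 15.3%, were called lower in the knockout and 1885, or 14.2%, higher, and the direction of calls moved with scaling. The FPKM of all genes summed to 805816 and 971102 in the wild-type, against 535973 and 568279 in the knockout. The higher share of calls was 48.3%, but 90.7% after rescaling each library to a fixed sum (TPM) and 35.8% after centring on the median gene. The median gene's log2 fold change was -0.09 on FPKM and 0.59 on TPM. Changes also went with transcript length, with a Spearman correlation across 13112 genes of 0.495, and with GC content, with a correlation of -0.462. These are descriptions across genes, which are not independent replicates. What produced the link was not tested, and each member's change is therefore also given after a loess correction for length and GC content, here called the corrected value.

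The 10 receptors fell into a detected and an undetected set. NR1H2, NR1H3, RXRA, ESRRA, PPARA and NR1I3 averaged above 1 FPKM and entered the test. NR1H4, NR0B2, NR5A2 and NR1I2 stayed below 0.1 FPKM in every library and did not. In the wild-type libraries the order of levels was NR1H2, ESRRA, NR1H3, RXRA, NR1I3 and PPARA. The ranges of NR1H2 and ESRRA overlapped there, while every later pair of neighbors among the 6 was separate. In the knockout libraries ESRRA stood above NR1H2 and PPARA above NR1I3, again with no overlap between neighbors among the 6. Of the 6, PPARA was called higher, 1 gene against a background of 14.2%, and 0 were called lower against 15.3%. At an unadjusted limma p under 0.05, 4 were lower and 1 higher, a threshold that 38.3% of all tested genes passed as lower and 33% as higher. Both knockout values lay below both wild-type values for 4 of the 6, where 45.9% of all tested genes did so, and above them for 1, where 40.1% did. The median log2 fold change of the 6 was -0.49 on FPKM, 0.18 on TPM and 0.08 after the correction, beside -0.09, 0.59 and -0.06 for all tested genes. Bulk RNA cannot tell fewer expressing cells from less RNA in each cell.

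**Figure D1:**
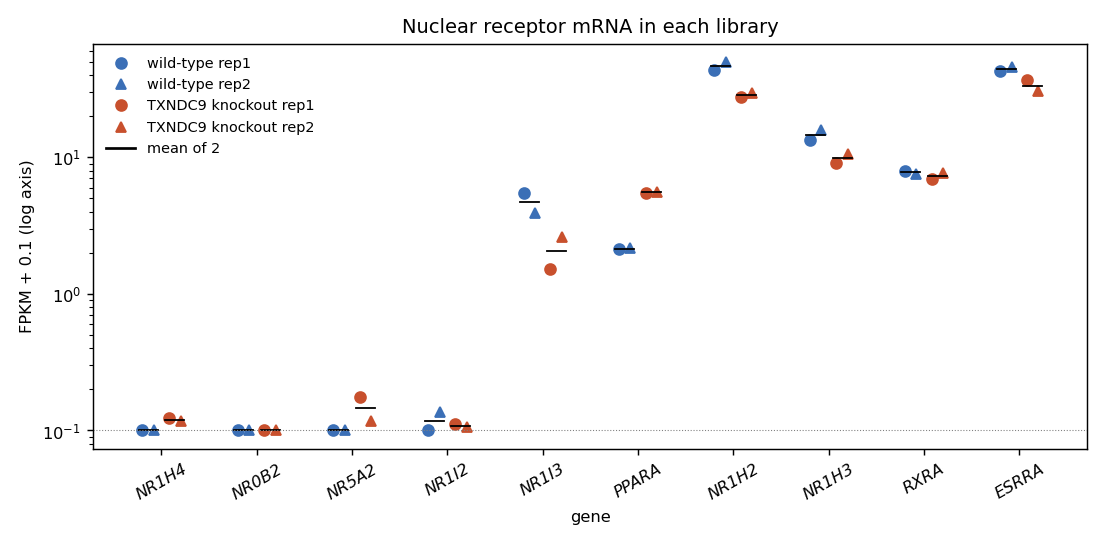
FPKM plus 0.1 (vertical log axis) of each of the 10 receptors in each of the 4 libraries, 1 point per library with the mean of each group as a bar; the dotted line is a value of 0 FPKM. PPARA lies near 2 FPKM in the wild-type and above 5 in the knockout libraries, RXRA overlaps between the groups, and NR1H4, NR0B2, NR5A2 and NR1I2 lie below 0.1 FPKM throughout.

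The DNA before the starts that RefSeq lists for these receptors differed in its content of CpG, the cytosine-guanine pair that is dense in promoters active in many tissues. RefSeq promoters of GRCh38.p14, running from 250 bases before to 50 after the start, were found for 9 of the 10 genes, and where several starts are listed the first was used. A window can therefore lie inside the gene span given for the member, which runs from the outermost annotated end, as it does for NR1H4, NR1H2, NR1I2 and RXRA. The undetected NR1H4, NR5A2 and NR1I2 held 2, 0 and 5 CpG in this window. Among the detected receptors NR1I3 held 3, NR1H3 2, NR1H2 22, ESRRA 39, PPARA 52 and RXRA 65, and the median of 35116 promoters was 14. Over all genes matched by symbol, 14.2% of the 3568 with at most 5 CpG averaged above 1 FPKM, against 74.5% of the 10218 with at least 15. NR1I3 and NR1H3 were thus detected although their first listed windows were low in CpG. The count depended on the start, since other listed starts of NR1H3, NR5A2 and RXRA hold 26, 16 and 8 CpG. Among other nuclear receptors, 16 windows of genes averaging above 1 FPKM had a median of 23 CpG. The 16 of genes at or below 1 FPKM had a median of 15.5, with a range of 1 to 29. The half-site AGGTCA, which these receptors apart from NR0B2 bind, was searched on both strands. It lay in the windows of NR1H4, NR5A2 and NR1H3, and in 13.8% of all promoters. A match is a description of the letters only. Below are the 250 bases before the start of 5 receptors, chosen to set undetected low-CpG promoters (NR1H4 and NR5A2) beside a detected low-CpG one (NR1I3) and 2 detected CpG-rich ones. Each is written 5′ to 3′ on the gene's strand, with every CpG in capitals. The NR1H4 stretch is at chr12:100503110-100503359 (plus strand), NR5A2 at chr1:200027460-200027709 (plus), NR1I3 at chr1:161238204-161238453 (minus), PPARA at chr22:46150276-46150525 (plus) and NR1H2 at chr19:50376207-50376456 (plus).
NR1H4: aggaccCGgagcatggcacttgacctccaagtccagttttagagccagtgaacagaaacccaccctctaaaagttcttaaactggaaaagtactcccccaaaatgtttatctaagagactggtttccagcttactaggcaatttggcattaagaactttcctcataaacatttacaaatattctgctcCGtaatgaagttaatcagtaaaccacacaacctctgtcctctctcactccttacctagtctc
NR5A2: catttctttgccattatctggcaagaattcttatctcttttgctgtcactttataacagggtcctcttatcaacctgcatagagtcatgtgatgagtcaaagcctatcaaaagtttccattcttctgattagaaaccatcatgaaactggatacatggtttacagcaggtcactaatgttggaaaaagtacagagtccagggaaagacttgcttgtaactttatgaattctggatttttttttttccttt
NR1I3: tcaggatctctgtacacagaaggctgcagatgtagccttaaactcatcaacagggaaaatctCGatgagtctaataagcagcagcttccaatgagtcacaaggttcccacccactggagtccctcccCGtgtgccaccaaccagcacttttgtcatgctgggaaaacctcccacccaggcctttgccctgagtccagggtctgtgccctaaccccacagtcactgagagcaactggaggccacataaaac
PPARA: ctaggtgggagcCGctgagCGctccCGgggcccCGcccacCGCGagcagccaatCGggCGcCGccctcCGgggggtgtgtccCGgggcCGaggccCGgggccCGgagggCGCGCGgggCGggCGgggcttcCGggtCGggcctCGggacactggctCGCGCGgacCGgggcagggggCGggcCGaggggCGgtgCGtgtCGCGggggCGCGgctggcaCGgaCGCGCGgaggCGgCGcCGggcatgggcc
NR1H2: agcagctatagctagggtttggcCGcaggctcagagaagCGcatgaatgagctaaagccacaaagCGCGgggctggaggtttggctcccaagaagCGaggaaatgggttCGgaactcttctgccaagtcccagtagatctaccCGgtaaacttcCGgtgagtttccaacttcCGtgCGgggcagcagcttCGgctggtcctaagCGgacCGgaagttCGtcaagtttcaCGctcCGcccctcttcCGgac

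**Figure D2:**
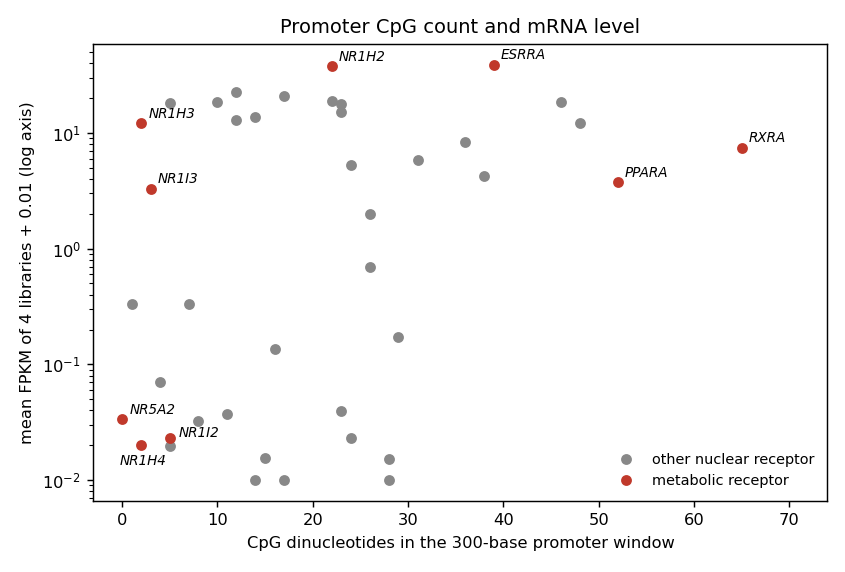
Number of CpG dinucleotides in the 300-base promoter window (horizontal axis) against mean FPKM of the 4 libraries plus 0.01 (vertical log axis), 1 point per nuclear receptor gene with a RefSeq promoter. The undetected NR1H4, NR5A2 and NR1I2 lie at 5 CpG or fewer, as do the detected NR1H3 and NR1I3, while NR1H2, ESRRA, PPARA and RXRA lie at 22 or more.

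The bile acid receptors were at or near 0. NR1H4 (chr12:100473708-100564414, hg38, plus strand), the bile acid sensor FXR, had 0.0230 and 0.0172 FPKM in the knockout and 0 in both wild-type libraries. NR0B2 (chr1:26911489-26913975, minus strand), which encodes the corepressing receptor SHP, was listed at 0 in all 4. It lies on the opposite strand from an overlapping gene, NUDC, at 284.5 and 354.6 FPKM in the wild-type and 95.4 and 107.8 in the knockout libraries, and was listed at 0 beside it. NR5A2 (chr1:200027614-200177420, plus strand), the receptor that drives CYP7A1, had 0.0754 and 0.0180 FPKM in the knockout and again 0 in both wild-type libraries. These values are too low for a change to be read from them, and no fold is given against a group at 0.

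Genes that make and move bile acids were mostly undetected as well. CYP7A1, the rate-limiting enzyme of bile acid synthesis, was listed at 0 in 3 libraries and at 0.0101 FPKM in the remaining knockout library. ABCB11, the bile salt export pump and a direct FXR target, was listed at 0 in all 4. Of 13 bile acid synthesis genes 5 were tested, and of these 1 fell and 0 rose, beside backgrounds of 15.3% and 14.2%. The counts at an unadjusted limma p under 0.05 were 3 lower and 2 higher, beside 38.3% and 33% of all tested genes. The one that fell was HSD17B4, a peroxisomal enzyme of fatty acid and bile acid side-chain oxidation, at 96.4 and 112.7 FPKM in the wild-type and 49.8 and 50.2 in the knockout libraries (log2 fold change -1.06, SE 0.12, limma adjusted p = 9.52e-04). Its corrected value was -1.16, but on TPM it was -0.38 and no longer called. Of 12 FXR targets and bile acid transporters 3 were tested, and 1 rose and 0 fell, beside 14.2% and 15.3%. SLCO1B3, a hepatocyte uptake transporter, rose from 7.42 and 7.73 to 18.9 and 17.7 FPKM (log2 fold change 1.26, SE 0.10, limma adjusted p = 5.50e-04). Its corrected value was 0.79, under 2-fold. The annotation places SLCO1B3 within a read-through gene on the same strand, whose reads cannot be told apart from its own.

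Of the 2 xenobiotic receptors 1 was detected. NR1I2 (chr3:119780484-119818487, plus strand), the drug sensor PXR, was listed at 0 and 0.0358 FPKM in the wild-type and had 0.0106 and 0.00534 in the knockout libraries. NR1I3 (chr1:161229666-161238244, minus strand), the constitutive androstane receptor CAR, measured 5.40 and 3.84 FPKM in the wild-type and 1.41 and 2.52 in the knockout libraries. The groups did not overlap, although the 2 libraries within each differed widely. The means were 4.62 ± 1.10 and 1.97 ± 0.783 FPKM (SD, n = 2), for a log2 fold change of -1.22 (SE 0.32, 95% interval -2.01 to -0.44, limma adjusted p = 0.0161), which did not pass the call rule. On TPM the change was -0.58 and after the correction -0.58 (limma adjusted p = 0.174). NR1I3 overlaps TOMM40L, a mitochondrial import gene, whose own values were 10.1 and 9.44 FPKM in the wild-type and 8.75 and 10.0 in the knockout libraries. Whether the counting used strand is not given in the sources used here, so reads of overlapping genes cannot be assigned with certainty.

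Targets of PXR and CAR were sparse. CYP3A4, the chief drug-oxidizing enzyme of the liver, measured 0.0468 and 0.0222 FPKM in the wild-type and 0.216 and 0.108 in the knockout libraries and was not tested. Of the 18 targets listed 6 were tested, of which 1 rose and 0 fell, beside 14.2% and 15.3% of all tested genes. At an unadjusted limma p under 0.05, 3 were lower and 2 higher, beside 38.3% and 33%. ABCC2, a canalicular export pump for conjugated compounds, rose from 10.1 and 8.67 to 32.6 and 38.1 FPKM (log2 fold change 1.90, SE 0.13, limma adjusted p = 5.12e-04), and its corrected value was 1.24. The median log2 fold change of the 6 was -0.34.

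Both oxysterol receptors were detected and lower in the knockout libraries on the FPKM scale. NR1H2 (chr19:50329653-50383388, plus strand), the widely expressed LXRβ, measured 43.3 and 49.5 FPKM in the wild-type and 27.7 and 29.7 in the knockout libraries. No knockout value reached a wild-type value. The means were 46.4 ± 4.36 and 28.7 ± 1.40 FPKM (SD, n = 2), 1.61-fold lower in the knockout (log2 fold change -0.69, SE 0.11, 95% interval -0.97 to -0.41, limma adjusted p = 0.00316), past the p threshold but not the 2-fold one. The difference was -0.01 on TPM and -0.03 after the correction. NR1H3 (chr11:47248300-47269033, plus strand), LXRα, the form enriched in liver and macrophages, measured 13.3 and 15.8 FPKM in the wild-type and 8.95 and 10.6 in the knockout libraries. Its groups did not overlap either, with means of 14.5 ± 1.73 and 9.75 ± 1.14 FPKM (SD, n = 2) and a difference of -0.57 on the log2 scale (SE 0.14, 95% interval -0.92 to -0.22, limma adjusted p = 0.0137). The sign turned to 0.11 on TPM and to 0.11 after the correction. NR1H3 overlaps ACP2, a lysosomal phosphatase gene with a log2 fold change of -0.68. Within each library, where scaling cancels, NR1H2 stood 3.25 and 3.14 times above NR1H3 in the wild-type and 3.09 and 2.81 times above it in the knockout.

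The LXR targets that were tested lay higher in the knockout libraries. ABCA1, the cholesterol efflux pump and textbook LXR target, was below 0.1 FPKM in every library and was not tested. Of 17 targets 7 were tested, and all 7 had both knockout values above both wild-type values, where 40.1% of tested genes did. Their median log2 fold change was 0.55, and 0.70 after the correction, beside -0.09 and -0.06 for all tested genes, and 2 of the 7 rose and 0 fell, beside 14.2% and 15.3%. The 10 that averaged at most 1 FPKM were not all higher. Chosen after their values were seen, APOE, a lipoprotein component, measured 1.21 and 0.839 FPKM in the wild-type and 0.267 and 0.586 in the knockout libraries, and ABCG1, a sterol efflux pump, 0.128 and 0.120 in the wild-type and 0.659 and 0.426 in the knockout. SCD, the desaturase that makes monounsaturated fatty acids, rose from 109.8 and 95.02 to 497 and 486 FPKM (log2 fold change 2.27, SE 0.13, limma adjusted p = 4.87e-04). MYLIP, which encodes a ligase that degrades the LDL receptor, rose from 1.44 and 1.10 to 4.30 and 4.10 FPKM (log2 fold change 1.66, SE 0.21, limma adjusted p = 0.00127). Both also passed the call rule after the correction, with values of 1.74 and 1.52. SREBF1, the master regulator of fatty acid synthesis and itself an LXR target, measured 116.5 and 113.9 FPKM in the wild-type and 158 and 147 in the knockout libraries, a log2 fold change of 0.41 (SE 0.11, limma adjusted p = 0.0191) that was not called. Its TPM value was 1.09 and called, and its corrected value was 0.72, under 2-fold.

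PPARA was the single receptor of the 10 that rose. PPARA (chr22:46150521-46243755, plus strand) measured 2.03 and 2.05 FPKM in the wild-type and 5.38 and 5.51 in the knockout libraries. The libraries of each group lay close together and the groups far apart, with means of 2.04 ± 0.0142 and 5.45 ± 0.0904 FPKM (SD, n = 2). The change was 2.59-fold, a log2 fold change of 1.37 (SE 0.14, 95% interval 1.01 to 1.73, limma adjusted p = 8.10e-04), and 8.87% of all tested genes had a larger rise, falls not counted. On TPM it was 2.05. Its representative transcript is 10118 nt long, against a median of 2866.5 nt over the tested genes, and its corrected value was 0.59 with a limma adjusted p of 0.0194, which was not called. The call was also lost, at log2 fold changes of 1.39 and 1.35, without knockout replicate 1 (adjusted p = 0.0254) and without knockout replicate 2 (adjusted p = 0.0248), settings under which 0 genes were called in the whole table.

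The balance among the 3 PPAR genes differed between the groups. PPARG, the adipocyte form, stood 9.78 and 11.1 times above PPARA in FPKM in the wild-type and 2.74 and 2.92 times in the knockout libraries. PPARD, the widely expressed form, stood 2.97 and 3.10 times above PPARA in the wild-type libraries and at 1.06 and 0.942 times its level in the knockout. These ratios do not depend on how a library is scaled, but they do not remove the link with transcript length.

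Tested PPARA targets lay on both sides of 0. CPT1A, the mitochondrial gate for long-chain fatty acids, measured 16.9 and 16.8 FPKM in the wild-type and 22.2 and 23.8 in the knockout libraries, a log2 fold change of 0.45 (SE 0.10, limma adjusted p = 0.00913) that passed the p threshold but not the 2-fold one, and 0.12 after the correction. On TPM CPT1A was at 1.13 and called. Of 20 targets 13 were tested, of which 2 fell and 0 rose, beside 15.3% and 14.2% of all tested genes, and the median was -0.06 on the log2 scale, or -0.08 after the correction. On TPM 2 of the 13 were called lower and 5 higher, beside 447 and 4380 of all 13246 tested genes. Their median on TPM was 0.62, beside 0.59 for all tested genes. At an unadjusted limma p under 0.05, 5 were lower and 5 higher, beside 38.3% and 33%. ANGPTL4, a secreted inhibitor of lipoprotein lipase that fasting induces, fell from 1.55 and 2.40 to 0.187 and 0.374 FPKM (log2 fold change -2.46, SE 0.46, limma adjusted p = 0.00507). ANGPTL4 averaged 1.13 FPKM and entered the test only through the wild-type libraries. Its knockout values lay near the 0.1 added before the logarithm. With 1 or 0.01 added instead, the log2 fold change was -1.20 or -2.81. With no filter on low values ANGPTL4 was not called (limma adjusted p = 0.0170). ACADVL, which opens the mitochondrial oxidation of very long acyl chains, fell from 738 and 888 to 240.3 and 249.8 FPKM (log2 fold change -1.72, SE 0.15, limma adjusted p = 5.98e-04). After the correction ACADVL still passed the call rule at -1.18, and ANGPTL4 did not, at -1.58 with an adjusted p of 0.0288. ACADVL overlaps DLG4 on the other strand.

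RXRA showed no difference that could be told from the spread. RXRA (chr9:134317098-134440585, plus strand), the heterodimer partner, measured 7.90 and 7.47 FPKM in the wild-type and 6.85 and 7.61 in the knockout libraries, and the groups overlapped. The means were 7.69 ± 0.302 and 7.23 ± 0.538 FPKM (SD, n = 2), differing by a log2 fold change of -0.09 (SE 0.12, 95% interval -0.38 to 0.20, limma adjusted p = 0.527), the same to 2 decimals as the median gene. It was 0.58 on TPM and 0.05 after the correction. Because RXRA is common to the heterodimers, the level of each partner was also set against it within a library. PPARA stood at 0.257 and 0.275 of the RXRA level in the wild-type and at 0.786 and 0.724 in the knockout libraries. NR1I3 stood at 0.683 and 0.513 of it in the wild-type and at 0.206 and 0.331 in the knockout. NR1H2 was 5.48 and 6.62 times RXRA in the wild-type and 4.04 and 3.90 times in the knockout. NR1H3 was 1.68 and 2.11 times RXRA in the wild-type and 1.31 and 1.39 times in the knockout. RXRB, the widely expressed paralog of RXRA, was more abundant than RXRA in every library. It stood at 2.37 and 2.40 times the RXRA FPKM in the wild-type and 3.45 and 3.13 times in the knockout. Ratios to RXRA do not remove the link of changes with transcript length.

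ESRRA (chr11:64305497-64316743, plus strand), the estrogen-related receptor of mitochondrial genes, measured 42.9 and 45.8 FPKM in the wild-type and 36.4 and 30.3 in the knockout libraries. The groups did not overlap. The means were 44.3 ± 2.04 and 33.4 ± 4.36 FPKM (SD, n = 2), and the difference on the log2 scale of -0.41 (SE 0.13, 95% interval -0.73 to -0.10, limma adjusted p = 0.0290) was not called. It was 0.26 on TPM and 0.39 after the correction, so its direction rested on the scale. ESRRA overlaps TRMT112, a small methyltransferase cofactor gene at 339.6 and 419.9 FPKM in the wild-type and 187 and 202 in the knockout libraries, several times above ESRRA itself.

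A coactivator of ESRRA rose on the FPKM and TPM scales. PPARGC1A, the fasting-induced coactivator PGC-1α of PPARA and ESRRA, rose from 1.52 and 1.22 to 4.85 and 5.28 FPKM (log2 fold change 1.82, SE 0.19, limma adjusted p = 7.90e-04). Its corrected value was 0.98, just under 2-fold. Of 10 ESRRA targets 9 were tested, with 1 lower call and 2 higher calls, beside backgrounds of 15.3% and 14.2%, and a median log2 fold change of -0.16, or 0.02 after the correction. COX5B, a subunit of cytochrome c oxidase, fell from 313 and 412 to 136 and 143 FPKM (log2 fold change -1.36, SE 0.16, limma adjusted p = 0.00114). IDH3A, a subunit of a citric acid cycle dehydrogenase, rose from 24.4 and 15.3 to 52.7 and 55.9 FPKM (log2 fold change 1.49, SE 0.22, limma adjusted p = 0.00221). TFAM, which packages and transcribes mitochondrial DNA, rose from 19.9 and 17.6 to 42.7 and 45.8 FPKM (log2 fold change 1.24, SE 0.11, limma adjusted p = 6.10e-04). After the correction only IDH3A of these 3 passed the call rule, and on TPM COX5B, at -0.68, was not called.

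**Figure D3:**
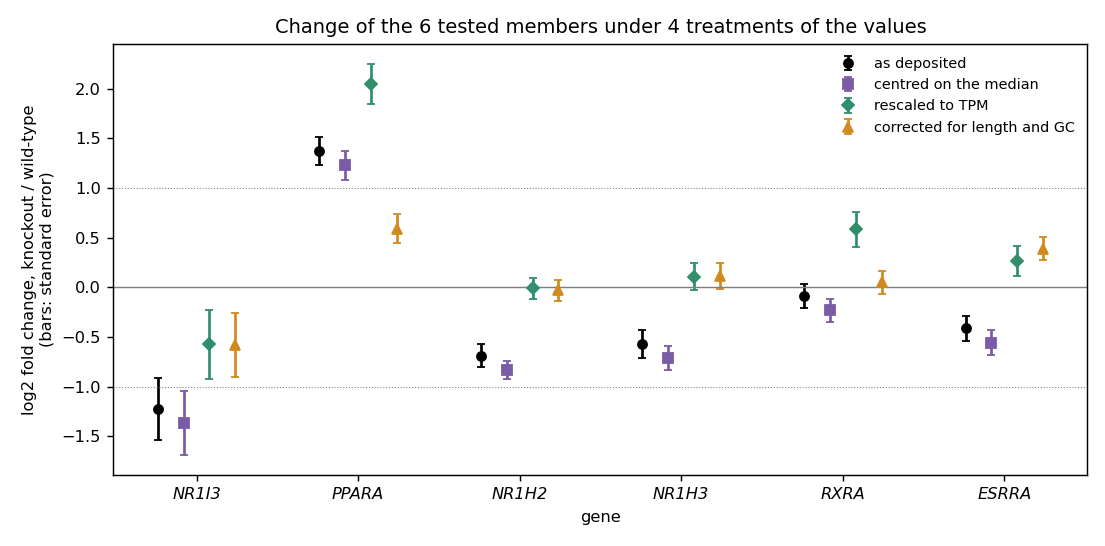
Log2 fold change, knockout over wild-type, of the 6 tested receptors on FPKM, after centring on the median gene, on TPM and as corrected for length and GC; points are the limma estimates, bars their standard errors and dotted lines a 2-fold change. PPARA stays above 0 and NR1I3 and NR1H2 at or below 0 in all 4, while NR1H3, ESRRA and RXRA change sign.

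Coactivators that these receptors recruit stood higher in the knockout libraries. Of 13 listed 12 were tested, of which 8 rose and 1 fell, beside backgrounds of 14.2% and 15.3%, with a median log2 fold change of 1.37. These are long genes, with a median transcript of 8049 nt, and after the correction 4 rose, 2 fell and the median was 0.78. Over all 13112 genes so corrected, 866 were called higher and 1011 lower, and the median was -0.06. NCOA2, a steroid receptor coactivator, rose from 0.873 and 1.03 to 4.92 and 5.56 FPKM (log2 fold change 2.35, SE 0.20, limma adjusted p = 5.62e-04). Its wild-type mean was 0.949 FPKM, so NCOA2 entered the test only through the knockout libraries. EP300, a histone acetyltransferase, rose from 2.87 and 2.12 to 10.9 and 12.4 FPKM (log2 fold change 2.19, SE 0.18, limma adjusted p = 5.50e-04). Both passed the call rule after the correction, at 1.45 and 1.55. PPRC1, a growth-induced relative of PGC-1α, fell from 34.8 and 40.0 to 17.3 and 17.6 FPKM (log2 fold change -1.09, SE 0.11, limma adjusted p = 7.64e-04), with a corrected value of -1.15. On TPM it was -0.41 and no longer called.

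Corepressors were called in both directions. All 9 listed were tested, of which 2 fell and 2 rose, beside backgrounds of 15.3% and 14.2%, and the median log2 fold change of 0.56 shrank to 0.05 after the correction. GPS2 and HDAC3, both subunits of the NCOR complex that silences unliganded receptors, fell. GPS2 went from 136.9 and 162.9 to 43.1 and 50.8 FPKM (log2 fold change -1.67, SE 0.14, limma adjusted p = 5.72e-04), and HDAC3 from 61.1 and 70.6 to 30.9 and 33.4 FPKM (log2 fold change -1.03, SE 0.12, limma adjusted p = 9.94e-04). Neither was called on TPM, at -0.99 and -0.35, or after the correction, at -0.87 and -0.65. NCOR1, the scaffold of the same complex, measured 25.6 and 28.8 FPKM in the wild-type and 54.1 and 52.9 in the knockout libraries, a log2 fold change of 0.98 (SE 0.11, limma adjusted p = 8.92e-04) just under 2-fold, and 0.05 after the correction. On TPM NCOR1 was at 1.66 and called. NRIP1, a corepressor of ligand-bound receptors in metabolic tissue, rose from 0.757 and 0.562 to 4.97 and 5.06 FPKM (log2 fold change 2.76, SE 0.23, limma adjusted p = 5.59e-04), with a corrected value of 1.76 that also passed the call rule. Its wild-type mean was 0.659 FPKM, so NRIP1 entered the test only through the knockout libraries. LCOR, another corepressor of ligand-bound receptors, rose from 2.13 and 2.27 to 11.5 and 7.26 FPKM (log2 fold change 2.01, SE 0.23, limma adjusted p = 0.00103), with a corrected value of 0.98. After the correction 1 of the 9 was called, NRIP1, which rose, beside 866 higher and 1011 lower calls among all 13112 corrected genes.

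**Figure D4:**
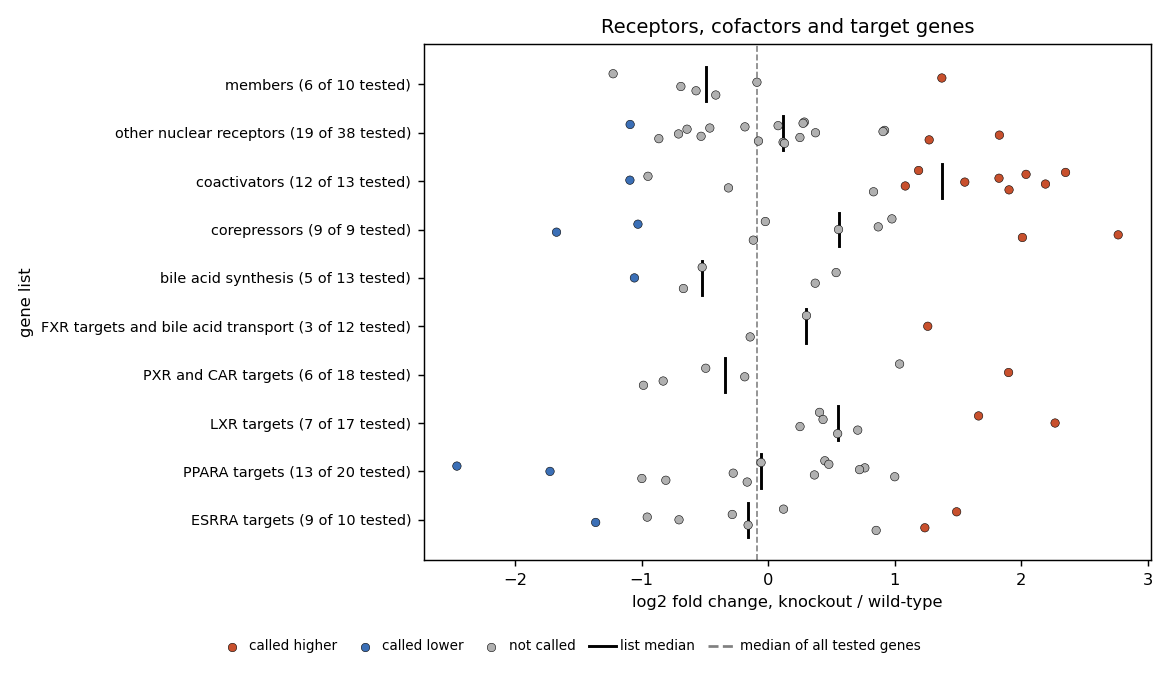
Log2 fold change, knockout over wild-type on FPKM, of each tested gene of the receptors, their cofactors and their targets; 1 point per gene, colored where called, with the list's median as a bar and the median of all tested genes as a dashed line. Coactivators (median 1.37) and LXR targets (median 0.55) lie mostly to the right, and PPARA targets (median -0.06) spread to both sides.

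Within the whole nuclear receptor family the 10 genes held a modest share. Of 48 human nuclear receptors 25 averaged above 1 FPKM, made up of 6 of the 10 metabolic receptors and 19 of the 38 others. The 10 together held 25.8% and 27.4% of the family's summed FPKM in the wild-type and 23.5% and 22.2% in the knockout libraries. NR2F6, an orphan receptor chosen here after its value was seen, led the family with an average of 86.4 FPKM, and ESRRA and NR1H2 came next. HNF4A, the receptor that defines hepatocyte identity, was below 0.1 FPKM in every library. Among the 19 other receptors tested 1 fell and 2 rose, beside backgrounds of 15.3% and 14.2%, with a median log2 fold change of 0.12. RARA, a retinoic acid receptor, fell from 16.5 and 18.5 to 7.71 and 8.63 FPKM (log2 fold change -1.09, SE 0.12, limma adjusted p = 8.72e-04), with a corrected value of -0.61 and a TPM value of -0.42 that were not called. NR2C2, a testicular orphan receptor, rose from 6.60 and 4.27 to 19.0 and 19.2 FPKM (log2 fold change 1.83, SE 0.21, limma adjusted p = 9.89e-04), with a corrected value of 0.99. NR3C1, the glucocorticoid receptor, rose from 8.92 and 8.65 to 21.4 and 21.3 FPKM (log2 fold change 1.27, SE 0.10, limma adjusted p = 5.38e-04), with a corrected value of 0.38. Neither rise passed the call rule after the correction. The correction left 1 of the 19 called lower and 0 higher, beside 1011 and 866 of 13112 corrected genes. That gene was NR2C1, named after its value was seen. It had 19.8 and 27.3 FPKM in the wild-type and 13.7 and 14.8 in the knockout libraries. Its log2 fold change was -0.71 and not called on FPKM, and -1.33 after the correction (limma adjusted p = 0.00250).

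**Figure D5:**
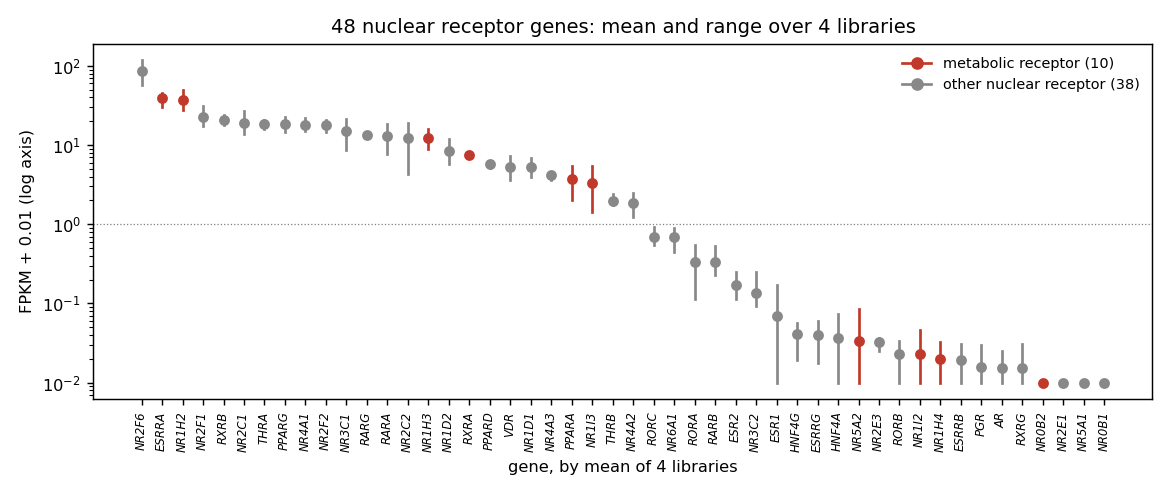
The 48 nuclear receptor genes ordered by mean level; points are the mean FPKM of 4 libraries plus 0.01 on a log axis, lines run from the lowest to the highest library, the dotted line is 1 FPKM and the 10 metabolic receptors are in red. NR2F6, ESRRA and NR1H2 lead, PPARA and NR1I3 lie at the low end of the detected genes, and NR5A2, NR1I2, NR1H4 and NR0B2 lie below 0.1 FPKM.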

How the data were processed

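Libraries were made from polyadenylated RNA of wild-type and TXNDC9 knockout cells and run on an Illumina instrument. The authors mapped them with TopHat2 to hg38 (Ensembl annotation) and deposited Cuffdiff's FPKM for every gene. Tool versions, library normalization, read number and strand use are not given in the sources used here. The 5 further columns, averages and the authors' own comparison, were not used. The deposited table repeats each of 57979 genes 4 times with identifiers out of register with symbols. It was reduced to 1 line per gene, after which 93.3% of protein-coding identifiers matched their GENCODE 44 symbol, and members were taken by symbol. Gene positions, transcript length and GC content are from GENCODE 44 on hg38, for the canonical transcript.

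Groups and replicate numbers came from the sample titles. All 4 libraries entered 1 limma 3.58.1 fit (R 4.3.3, intensity trend) on log2(FPKM + 0.1) for genes averaging above 1 FPKM. Calls needed both an adjusted p below 0.01 and a 2-fold change. No value corresponding to 1 read was found, so depth is unknown and no counting interval is given. In data simulated for this comparison without a length trend (13112 genes, 200 changed by 2.5 on the log2 scale) 89% were recovered with 4 false calls. With a trend in transcript length added to the simulated knockout libraries, the uncorrected fit made 3027 false calls and the corrected fit 3. The main calls are uncorrected, and the simulated trend was not matched to the link seen here.

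Named genes were the 10 members, TXNDC9, up to 2 called genes with the largest fall and 2 with the largest rise in each list, and 9 textbook genes. The members and lists were chosen with earlier results of these data known. Alternatives were pseudocounts of 1 and 0.01, no filter, a filter of 5 FPKM, TPM, median centring, no trend, an adjusted p under 0.05, a replicate block, each library left out, and a loess correction (span 0.3) for transcript length and GC content.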

Additional observations from a re-analysis of the deposited data

How the results depend on the processing

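The direction of RXRA, NR1H3 and ESRRA rested on the scale. Their log2 fold changes turned to 0.58, 0.11 and 0.26 on TPM and to 0.049, 0.11 and 0.39 after the length and GC correction, with or without the block. The rise of PPARA was the 1 member call, and 0 remained with a filter of 5 FPKM, which left PPARA untested, after the correction, and after the correction with the block. Without 1 library in turn the member count higher ran from 0 to 1. The member count lower went from 0 to 1 at an adjusted p under 0.05, through NR1I3. Over all genes, TPM gave 447 lower and 4380 higher calls, the correction 1011 and 866, the correction with the block 1034 and 872, and the filter of 5 FPKM 1220 higher. Over the pathway lists (8 lower and 18 higher), TPM gave 2 and 38, centring 13 lower, and the correction 9 higher with or without the block. Leaving out 1 library gave 0 to 2633 lower and 0 to 2136 higher calls over all genes, and 0 to 12 and 0 to 19 over the lists. The counts of 0 came without knockout replicate 1 or 2, where limma takes the spread from the wild-type pair alone and assumes that the lone knockout library varies alike, and 7129 and 7307 genes still had an unadjusted p under 0.05. Without wild-type replicate 2 the lists held 5 lower calls, and PPRC1, HDAC3 and HSD17B4 were no longer called.

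The replicate numbers are shared by the groups, but nothing in the labels pairs them, and the deviations of same-numbered libraries correlated at -0.0904 over 2 pairs. With the replicate number as a block 1 member was called lower, NR1I3 with an adjusted p of 0.00526. No other member's call changed with the block alone.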
